A study of Homo sapiens with 4 samples.

Results

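The BCL2 family sets the threshold at which mitochondria release cytochrome c and a cell enters apoptosis. The genes described here are its 10 members BID, BAX, BAK1, BAD, BBC3, PMAIP1 and BCL2L11, which promote cell death, and BCL2, BCL2L1 and MCL1, which oppose it. They were followed in PLC8024, a human hepatocellular carcinoma line, after flow-cytometric sorting into a CD133+ and a CD133- population. CD133 is the surface protein encoded by PROM1 and serves in liver cancer to sort out cells with tumour-initiating ability. The labels give no treatment, passage or number of sorts for either population. The series holds 4 array columns, which are 1 CD133+ and 1 CD133- population, each given once as RMA log2 values and once as MAS5 intensities. The columns of one population are 2 processings and not replicates, so the error between sorts or cultures is unknown, no test was possible, and the number of arrays limits the precision.

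Every probe set that the platform annotation assigns to exactly 1 of the 10 genes was taken. This gave 32 probe sets for 9 genes, out of 19775 genes with a named probe set. BBC3, which encodes PUMA, had no probe set of its own because the annotation shares it with other genes, and no value is given for it. BID was selected on its RMA difference between these same arrays, and the others were chosen by gene family, so the values are a description.

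Proteins of this family fall into 3 kinds. BAX and BAK1 encode the effectors that permeabilise the outer mitochondrial membrane. BCL2, BCL2L1 (BCL-xL) and MCL1 encode guardians that bind and restrain them. The remaining members encode proteins that share only a short segment, the BH3 domain, with the others and act as triggers: BID, BAD, BCL2L11 (BIM), PMAIP1 (NOXA) and BBC3. BID is the link between the surface and the mitochondrion, since caspase-8 cuts it after a death receptor is engaged and granzyme B cuts it after attack by a cytotoxic lymphocyte. Hepatocytes are known for needing this link to die through FAS.

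The expression floor was the median of each RMA column, 5.16 in CD133+ and 5.14 in CD133-, and a probe set lay above it if the larger of its values did. A probe set was counted as higher or lower if, besides lying above the floor, it showed a 2-fold or larger difference of one sign in RMA and in MAS5. The probe set with the largest average RMA level stood for its gene, and differences are CD133+ minus CD133- on the log2 scale. Where a pair of levels is given, CD133+ comes first. Of the 9 genes, BID was counted as higher and none as lower, against 2.25% higher and 1.09% lower among the 13116 genes above the floor. Among the probe sets, the 3 of BID were counted as higher and 1 of MCL1 as lower. Over all probe sets above the floor these shares were 1.74% and 1.09%. The comparison that drew attention to BID is the one counted here, and nothing is read from its count.

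The labels and the tissue were checked on marker genes. PROM1 stood at an RMA level of 10.35 in the population labelled CD133+ and at 6.04 in the one labelled CD133-. All 7 liver genes with a named probe set were above the floor, and ALB, AFP and APOA1 were counted as lower in CD133+. Of the 4 leukocyte markers with a probe set, LYZ and CD3E were above the floor and PTPRC and CD14 were not. LYZ, the lysozyme gene, was counted as higher, at RMA values of 11.14 and 9.42. The summed MAS5 intensity of the leukocyte list was 10399.7 in CD133+ and 4116 in CD133-, of which LYZ alone gave 10257 and 4008. The sums were 300.0 and 951 for the endothelial list, where PECAM1 alone of 4 was above the floor and was counted as lower. They were 905 and 494 for the fibroblast and stellate list, with COL1A1 and DCN of 5 above the floor, and 203 and 169 for HBB, the erythroid marker measured. The part of other cells in the values below was not tested.

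BID was higher in CD133+ on each of its 3 probe sets. On 211725_s_at its RMA levels were 8.50 in CD133+ against 4.92 in CD133-, and its MAS5 intensities were 1709.9 and 185. The probe set 204493_at gave RMA values of 6.97 and 3.98 and intensities of 514 and 25.1. The probe set 227143_s_at gave 7.10 and 5.60, with intensities of 674 and 124. The CD133+ value was thus the higher one on every probe set in both processings, although by unlike amounts. In sorted populations read in bulk, fewer cells with a transcript and less of it per cell cannot be told apart.

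The RMA differences of BID were 3.58, 2.99 and 1.5, and the MAS5 log2 ratios in the same order were 3.21, 4.36 and 2.45. A fold is given only for 227143_s_at, with 2.83-fold by RMA and 5.46-fold by MAS5, because the CD133- values of the other probe sets lay under the floor. These probe sets passed the floor only through CD133+, where BID was high. How low BID was in CD133- depended on the probe set and the processing. On 211725_s_at the CD133- value lay at percentile 46.5 of its RMA column but at 63.3 of its MAS5 column, while on 204493_at it lay at 31.1 and 25.7. In CD133+ the same probe sets lay at percentiles 89.0 and 75.3 of the RMA column. The RMA differences of BID thus spanned a range of 2.08 over its probe sets.

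**Figure D1:**
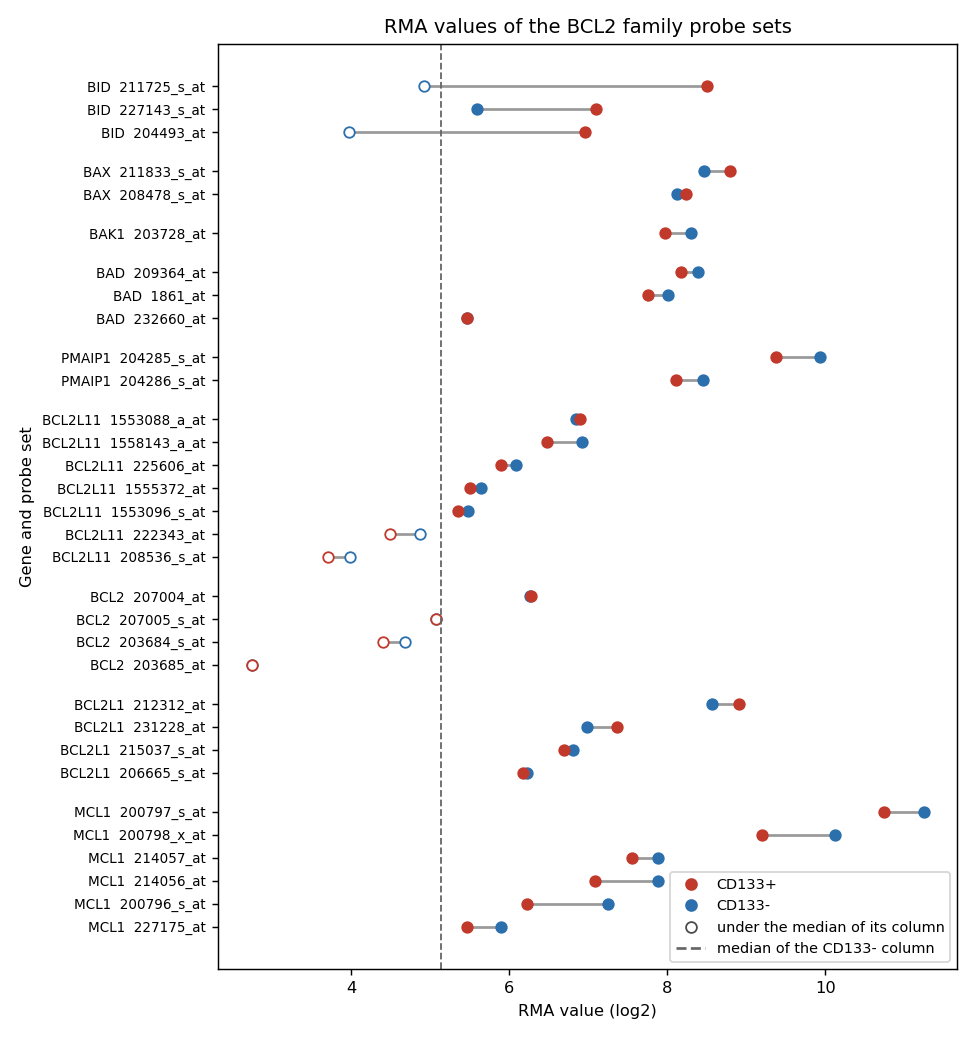
RMA values (log2, horizontal axis) of the 32 probe sets of the 9 measured BCL2 family genes in the CD133+ (red) and CD133- (blue) population, with 1 array value per point, a grey line joining the values of a probe set, and open circles for values under the median of their column. The 3 BID probe sets have the longest lines, from 1.5 to 3.58, and all 6 MCL1 probe sets have their CD133+ value on the left.

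The genes whose pair of representative RMA and MAS5 differences lay nearest to BID's, over 2 populations, were SERPINB9, SLITRK4 and HLA-DPA1. SERPINB9 encodes an inhibitor of granzyme B, SLITRK4 a neuronal membrane protein and HLA-DPA1 a chain of an MHC class II molecule. SERPINB9 had RMA values of 8.83 and 5.37 and differed by 3.47 (RMA) and 3.20 (MAS5), a distance of 0.11 from BID. SLITRK4 differed by 3.45 and 2.90 and HLA-DPA1 by 3.20 and 3.27. The CD133- RMA value of SLITRK4, 2.92, lay under the floor, which the gene passed through CD133+ alone. With 1 difference per gene and processing, likeness of pattern means only a like size of difference.

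The windows upstream of BID and SERPINB9 are shown because these genes differed by nearly the same amount. Both are the 250 bases before the most upstream start in RefSeq, on assembly GRCh38.p14 and 5′ to 3′ on the gene's strand, which is the minus strand for both. BID's is chr22:17774666-17774915 and SERPINB9's chr6:2903310-2903559. Capitals mark matches on either strand to 5 motifs. The TATA-binding motif was searched as TATAAA. The CAAT motif was searched with the letters CCAAT. The GC box was searched with the letters GGGCGG. The AP-1 site was searched with the letters TGANTCA. The cAMP response element was searched with the letters TGACGTCA.
BID: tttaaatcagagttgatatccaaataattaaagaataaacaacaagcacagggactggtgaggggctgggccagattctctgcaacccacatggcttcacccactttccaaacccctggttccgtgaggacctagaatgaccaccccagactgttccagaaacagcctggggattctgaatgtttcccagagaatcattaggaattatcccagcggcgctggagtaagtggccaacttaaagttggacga
SERPINB9: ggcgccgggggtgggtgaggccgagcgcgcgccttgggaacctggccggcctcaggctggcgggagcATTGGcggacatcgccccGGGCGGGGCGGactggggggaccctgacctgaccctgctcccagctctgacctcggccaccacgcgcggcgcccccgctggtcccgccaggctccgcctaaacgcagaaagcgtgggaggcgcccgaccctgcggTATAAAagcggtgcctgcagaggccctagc
No match to any of the 5 motifs stood in the BID window, which had a GC content of 47.6%. The SERPINB9 window, at 74.4% GC, held 1 TATA-binding motif, 1 CAAT motif on the reverse strand and 2 GC boxes that overlap each other. The median GC content over 35116 windows was 58%. Among those windows 10.7% held the TATA-binding motif, 32.0% the CAAT motif, 42.6% the GC box, 6.57% the AP-1 site and 1.65% the cAMP response element. RefSeq lists 5 start windows for BID, which overlap in part, and the other 4 held 1 to 4 GC boxes each and none of the other motifs. The GC content of those 4 ran from 68.8% to 78%, so the BID window shown is unlike the others. A match is a description of letters, and the array does not say which start was used.

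The effectors BAX and BAK1 differed little, and in opposite directions. BAX had RMA levels of 8.79 in CD133+ against 8.47 in CD133- on 211833_s_at, with intensities of 1889 and 1455. Its other probe set, 208478_s_at, gave 8.24 and 8.13, with intensities of 1388 and 1197. BAX was therefore slightly higher in CD133+ on both, at 1.25-fold and 1.08-fold in RMA. BAK1 was measured by 203728_at alone, at 7.97 in CD133+ and 8.30 in CD133-, with intensities of 656 and 959, a difference of -0.33 in RMA and -0.55 in MAS5. Neither gene was counted. For scale, the differences of the 2 highest probe sets of one gene had an SD of 0.35 around each other in RMA and 0.79 in MAS5 over 6170 genes. The BAX and BAK1 differences were smaller than these SDs, which hold no error between sorts. Of the members described next, PMAIP1 and MCL1 had representative differences larger than this SD in RMA, at -0.55 and -0.50, and smaller than it in MAS5, at -0.31 and -0.21.

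Among the other triggers, PMAIP1 lay on the CD133- side. PMAIP1, whose protein NOXA chiefly antagonises MCL1, had RMA levels of 9.38 in CD133+ against 9.93 in CD133- on 204285_s_at and of 8.11 and 8.45 on 204286_s_at. Its RMA differences were -0.55 and -0.34 and its MAS5 ratios -0.31 and -1.04, so the processings placed the larger difference on different probe sets. BAD, whose protein binds BCL2 and BCL-xL, had RMA values of 8.17 and 8.39 on 209364_at and of 7.76 and 8.01 on 1861_at. Its differences there were -0.22 and -0.25 in RMA and only -0.02 and -0.10 in MAS5. The remaining probe set, 232660_at, had the same RMA value, 5.47, in both populations.

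BCL2L11, which encodes the broad-acting trigger BIM, had 7 probe sets, of which 5 were above the floor. The representative one, 1553088_a_at, gave 6.90 in CD133+ and 6.84 in CD133-. The other 4 above the floor had negative differences, the lowest being -0.45 on 1558143_a_at, where MAS5 gave -0.71. The 2 below the floor, 222343_at and 208536_s_at, had differences of -0.38 and -0.28. In RMA the CD133- value of BCL2L11 was thus the higher one on all probe sets but the representative one, by amounts under 1.5-fold. In MAS5 the representative one gave -0.13 and 1555372_at gave 0.08, so the processings placed the exception on different probe sets.

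MCL1, a short-lived guardian that hepatocytes depend on, was lower in CD133+ on all 6 of its probe sets and in both processings. The representative one, 200797_s_at, had RMA levels of 10.75 in CD133+ against 11.25 in CD133-, with intensities of 7922 and 9159. On 200798_x_at the values were 9.19 and 10.12, and the intensities 3256 and 5759. On 200796_s_at they were 6.23 and 7.25, and the intensities 207 and 605. MCL1 was thus lower by more on these last probe sets than on the representative one. The remaining probe sets gave RMA values of 7.08 and 7.88 on 214056_at, 7.55 and 7.89 on 214057_at and 5.47 and 5.90 on 227175_at.

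The RMA differences of MCL1 ran from -1.02 on 200796_s_at to -0.34 on 214057_at, with a median of -0.65, and the MAS5 ratios from -1.55 to -0.21. Of its probe sets 200796_s_at alone passed the count rule, with 2.02-fold by RMA and 2.93-fold by MAS5. The one next to the threshold, 200798_x_at, missed it at 1.90-fold and 1.77-fold. As a gene MCL1 was not counted, with a representative difference of -0.50. Of 137 genes with at least 6 probe sets above the floor, 25 (18.2%) had all of them lower in CD133+ in RMA. Probe sets of one gene read the same RNA and are not replicates.

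BCL2L1, which encodes BCL-xL, went both ways over its 4 probe sets. Its RMA levels were 8.91 in CD133+ against 8.56 in CD133- on 212312_at and 7.37 and 6.98 on 231228_at. On 215037_s_at they were 6.69 and 6.81, and on 206665_s_at 6.18 and 6.23. The first pair had differences of 0.35 and 0.38 and the second pair of -0.12 and -0.06. The MAS5 ratio of the representative 212312_at was 0.05, and that of 231228_at was 0.86.

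BCL2, the founding guardian of the family, was near the floor in both populations. Only 207004_at was above it, with RMA values of 6.27 and 6.26 and intensities of 117 and 125. The 3 probe sets below the floor had RMA differences of 0.00, 0.00 and -0.28 on 207005_s_at, 203685_at and 203684_s_at, while their MAS5 ratios were -2.66, -3.16 and -1.06. The intensities behind the MAS5 ratio of 203685_at were 4.97 and 44.6, under the MAS5 column medians of 86.0 and 86.1. RMA gave exactly the same value in both populations for 5.87% of all 54675 probe sets. The probe set of BCL2 above the floor thus had nearly equal values, with differences of 0.01 by RMA and -0.10 by MAS5.

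**Figure D2:**
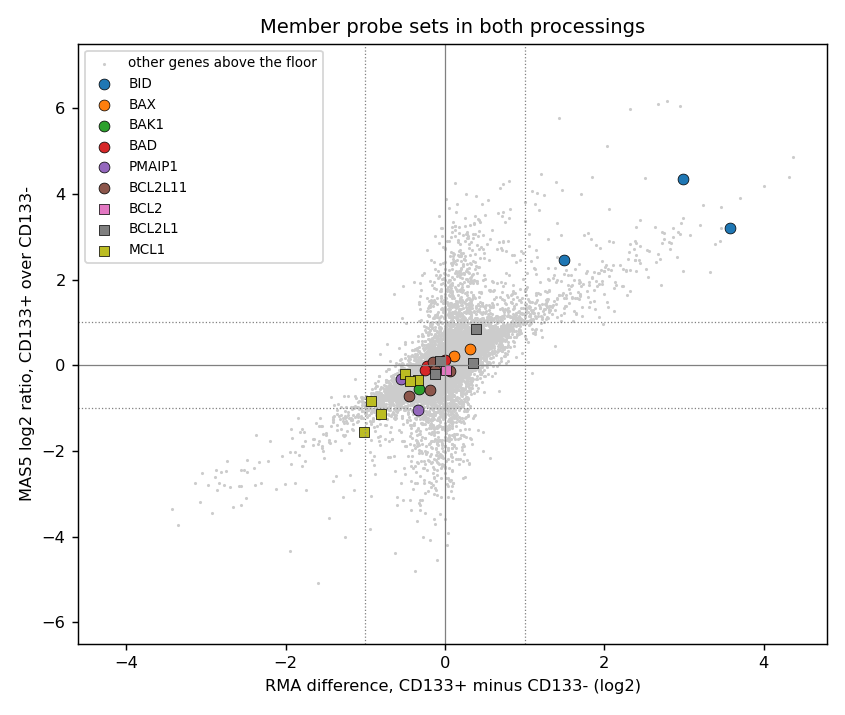
RMA difference (horizontal axis, log2) against MAS5 log2 ratio (vertical axis), CD133+ against CD133-, for the 27 member probe sets above the floor (circles pro-death, squares pro-survival) and, in grey, the representative probe sets of the other genes above the floor, with dotted lines at 2-fold. The 3 BID probe sets lie in the upper right, 1 MCL1 probe set lies past both lower lines, and the rest lie inside the RMA lines.

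As classes, the pro-death and pro-survival members had nearly the same median difference. The 6 measured pro-death genes had a median of -0.08 in RMA and -0.07 in MAS5, and ran from -0.55 for PMAIP1 to 3.58 for BID. The 3 pro-survival genes had medians of 0.01 and -0.10, and ran from -0.50 for MCL1 to 0.35 for BCL2L1. Over all genes above the floor the medians were 0.00 in both processings. The class medians differed by -0.09 in RMA and by 0.03 in MAS5, in opposite directions. Without BID the pro-death median was -0.22 in RMA, and the largest RMA difference of any member probe set other than BID's was the -1.02 of MCL1. The ranges of the classes overlapped.

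The rest of the pathway was read from 7 lists with 53 genes, of which 51 had a named probe set and 45 were above the floor. RIPK1 and BIRC3 were not analysed here. Of the 45, SERPINB9 was counted as higher and none as lower, 17 differences were above 0 and 26 below, and the median was -0.13. The background over the 13116 genes was 2.25% higher and 1.09% lower by the count rule, with 48.2% of differences above 0 and 49.9% below, so the called share of the lists lay near it.

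Of the other pro-death relatives 7 of 9 were above the floor, with a median of 0.20. BIK, a trigger of the endoplasmic reticulum, had RMA levels of 5.94 in CD133+ against 5.06 in CD133- and intensities of 226 and 38.0. Its differences were 0.87 in RMA and 2.57 in MAS5, which misses the count rule in RMA, and its CD133- value lay under the floor. The triggers HRK and BMF differed by 0.25 and 0.20, and BCL2L13, a mitochondrial relative, by 0.37, although its 4 probe sets above the floor went both ways. Of the other pro-survival genes BCL2A1 was below the floor. BCL2L2 and BCL2L10 differed by -0.23 and 0.11 in RMA and by -0.64 and -0.92 in MAS5. The MAS5 intensities of BCL2L10, 24.8 and 47.1, lay under the column medians of 86.0 and 86.1, and its processings differed in sign.

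On the death receptor side, which leads to the cleavage of BID, no gene of 11 above the floor was counted and the median was -0.14. The shares over all genes above the floor were 2.25% higher and 1.09% lower. CASP8, the protease that cuts BID, had RMA levels of 8.49 in CD133+ against 9.10 in CD133-, a difference of -0.61, and -0.93 on its other probe set above the floor. CFLAR, which encodes the caspase-8 inhibitor FLIP, had values of 9.90 and 9.42. Its representative difference was 0.47 in RMA and 0.55 in MAS5. In RMA all 11 of its probe sets above the floor were higher in CD133+, by 0.06 to 0.54, and 1 of them, 239629_at at 0.54, passed the floor through CD133+ alone. In MAS5 9 of the 11 were higher, and 211316_x_at and 211317_s_at gave -0.07 and -0.05. Of the 137 genes with at least 6 probe sets above the floor, 14.6% had all of them higher in RMA. TNFSF10, the gene of the death ligand TRAIL, differed by 0.44 and its receptor TNFRSF10A by -0.31. The other probe sets of TNFSF10 gave 0.82 on 202687_s_at and 0.67 on 214329_x_at, which passed the floor through CD133+ alone. Those of TNFRSF10A gave -0.46 and -0.19. FAS and its ligand gene FASLG were below the floor in both populations.

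In the list of proteases and regulators around BID, 1 of 8 genes above the floor was counted, as higher. The shares over all genes above the floor were 2.25% higher and 1.09% lower, and nothing is read from this count. The median was -0.25. SERPINB9 was higher by 11.1-fold (RMA) and 9.17-fold (MAS5), and its probe set 209722_s_at differed by 1.57. GZMB, the gene of granzyme B itself, was below the floor, at RMA values of 4.27 and 4.20. The ubiquitin ligase gene ITCH differed by -0.82 on its representative probe set. In RMA its 6 probe sets divided evenly, from -1.34 on 209743_s_at to 0.68 on 236235_at, and in MAS5 2 were above 0 and 4 below. On 209743_s_at it was lower by 2.53-fold (RMA) and 2.80-fold (MAS5), while 236235_at passed the floor through CD133+ alone. The casein kinase genes CSNK1E and CSNK1A1, whose products phosphorylate BID, differed by -0.52 and -0.36. On its other probe set, 222015_at, CSNK1E differed by 0.04. All 10 probe sets of CSNK1A1 above the floor were lower in CD133+ in both processings, beside the 18.2% of genes given above for RMA.

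Downstream of BID no gene was counted, beside 2.25% and 1.09% over all genes. Of 9 genes for mitochondrial partners, which had a median of -0.19, AIFM1, the apoptosis-inducing factor gene, differed by -0.84 in RMA and -0.88 in MAS5. ENDOG, a mitochondrial nuclease gene, differed by 0.32, DIABLO, which encodes an antagonist of IAP proteins, by -0.27 and CYCS, the cytochrome c gene, by -0.22. The other probe sets of CYCS gave 0.08 and -0.30. APAF1, the scaffold of the apoptosome, differed by 0.44, CASP6 by -0.06 and CASP9 by 0.00. Their other probe sets above the floor gave -0.08 for APAF1, 0.16 for CASP6, and 0.19 and 0.36 for CASP9. The 5 measured IAP genes, inhibitors of caspases, had a median of -0.27. BIRC2 differed by -0.69, XIAP by -0.30, BIRC6 by -0.27 and BIRC7 by 0.06. All 7 probe sets of XIAP above the floor were lower in CD133+ in RMA, with differences from -0.92 to -0.19, and 1 was above 0 in MAS5. Of genes with at least 6 probe sets above the floor, 18.2% had all of them lower in RMA.

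**Figure D3:**
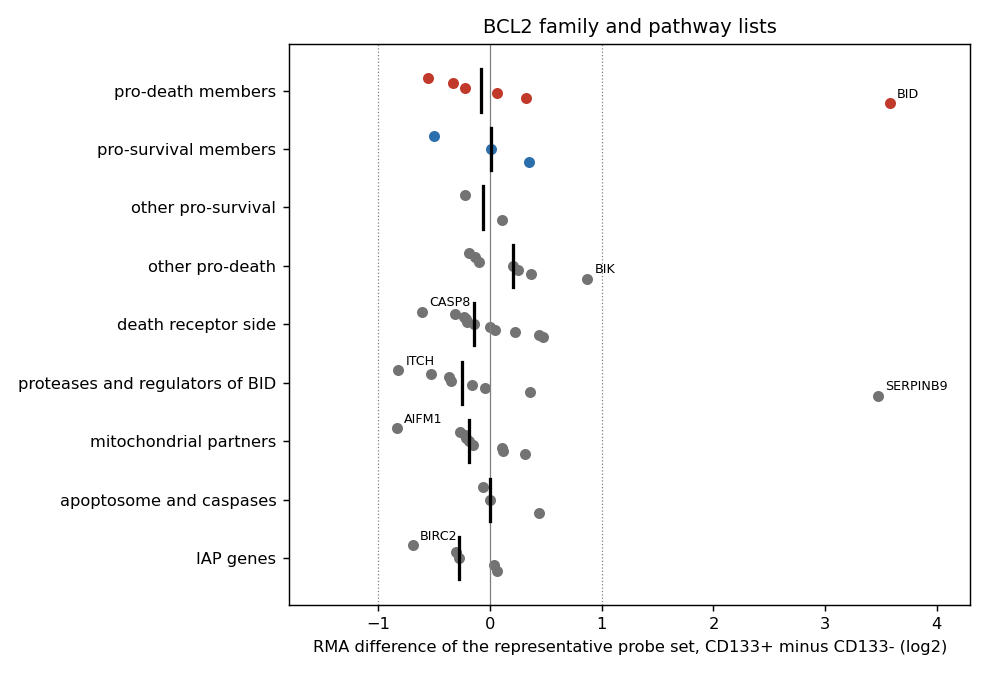
RMA difference of the representative probe set (horizontal axis, log2, CD133+ minus CD133-) for each gene above the floor in the member classes and the 7 pathway lists, with 1 point per gene, a black bar at each list's median, dotted lines at 2-fold and names for differences beyond 0.6. BID at 3.58 and SERPINB9 at 3.47 stand past the 2-fold line, and every other gene drawn lies inside it.

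BID lies on chromosome 22, and the genes beside it that were above the floor did not share its difference. Of the 6 nearest genes with a named probe set on each side, 9 of 12 were above the floor, and their median difference was 0.02. None was counted as higher and 1 as lower, beside 2.25% and 1.09% over all genes above the floor. BCL2L13, next to BID on one side, had RMA levels of 7.78 in CD133+ against 7.41 in CD133-. LINC00528, a noncoding gene next to it on the other side, was below the floor at 5.03 and 4.09, and differed by 0.94 (RMA) and 2.17 (MAS5). SLC25A18, a mitochondrial carrier gene, was the one counted as lower, by 2.27-fold (RMA) and 2.35-fold (MAS5), and CECR2 differed by -0.63. The remaining neighbours above the floor, ATP6V1E1, MICAL3, PEX26, TUBA8, USP18 and PRODH, differed by -0.26 to 0.20.

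**Figure D4:**
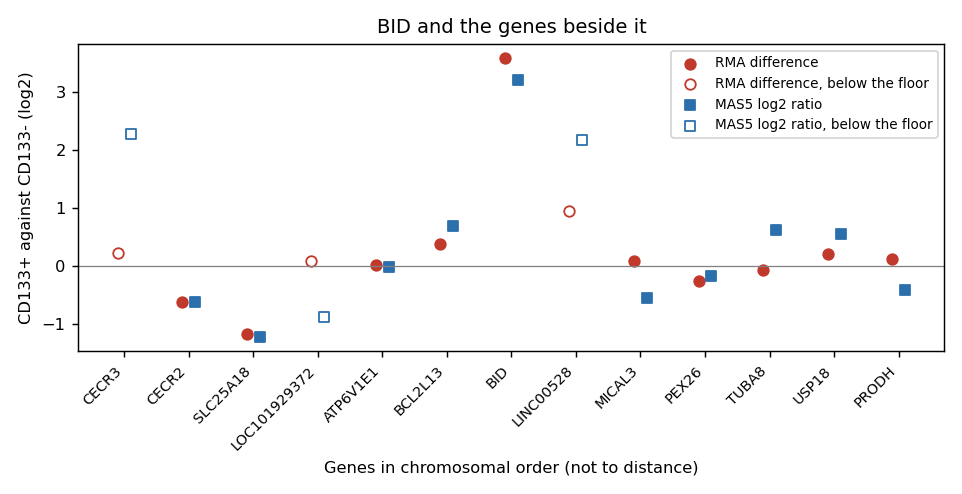
RMA difference (red circles) and MAS5 log2 ratio (blue squares) of CD133+ against CD133- (vertical axis, log2) for BID and the 6 genes with a named probe set on each side, in chromosomal order and not to distance, with open symbols for genes below the floor. BID stands at 3.58 and 3.21, and the filled symbols of its neighbours lie between -1.23 and 0.68.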

How the data were processed

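The authors deposited RMA values on the log2 scale and MAS5 values as linear intensity, 1 column per population and processing. Per the submitters' processing notes the tools were GCOS, MAS5 and RMA, while their versions, and the arrays normalized together, were not given in the sources used here. Gene names came from GEO's platform annotation, with symbols updated by gene ID in RefSeq for GRCh38.p14. Of 54675 probe sets, 41097 had 1 gene, 1801 several and 11777 none. Values were used as deposited, and MAS5 ratios had no pseudocount. No test was run, since each population had 1 array value per processing. The count rule was tried on simulated data, with large changes in well expressed genes that all probe sets of a gene shared. That simulation could not test the floor or the choice of a representative probe set. The named genes were all members, up to 4 genes per list above the floor with the largest RMA differences and any counted gene, the 3 genes nearest to BID in both differences, and BID's neighbours that were counted or differed by more than 0.5. Other neighbours, FAS, FASLG, GZMB and BCL2A1 were named after their values were seen. Some genes of the lists are not reported here. The members and lists were chosen with earlier results of these data known. Computations used Python 3.11.15 with pandas 2.3.3 and numpy 2.4.6.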

Additional observations from a re-analysis of the deposited data

How the results depend on the processing

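With 1 array value per population in each processing, no spread between sorts can be had, and a value is called moved when it shifted by more than the 0.35 SD between probe sets of a gene. BID was counted as higher under all 8 other settings tried for it. Dropping the floor, counting at 1.5-fold and counting from MAS5 alone only loosen the rule, so BID could not fail them. All 3 of its probe sets were counted already, so the median and the choice of probe sets could not change its call either. The CD133+ value of 211725_s_at, at percentile 89.0, lay above the floor at the 75th percentile, and centring moved the difference only to 3.55. BID was also selected on this difference, so the number of settings adds no support. Its difference was 3.58 in the main setting, 3.21 from MAS5 in place of RMA, 2.90 from MAS5 with a pseudocount of 50, and 2.99 both as the median over probe sets and without _x_at and _s_at probe sets. Most of the other members' differences are no larger than 0.35, so none of their 62 values counts as moved, yet some changed much: MCL1 was -0.50 in the main setting and -0.21 in MAS5, and BCL2L1 was 0.35 and 0.05. BCL2, 0.01 in the main setting and -0.10 in MAS5, and BCL2L11, 0.06 and -0.13, changed sign. BAX and PMAIP1 have probe sets of those kinds only. The pro-death minus pro-survival median ran from -0.23 without BID, a setting added with the values known, to 0.03 in MAS5. It was below 0 in 9 of 12 settings, but the 1.5-fold rule and centring each column on its median could not change it. Dropping the floor left the same genes in each class, so the number of settings says nothing about its sign. From MAS5 alone, 3 list genes were counted as higher (BIK, TNFRSF10C and SERPINB9) and 3 member probe sets as lower (2 of MCL1 and 1 of PMAIP1). Counted at 1.5-fold, 2 list genes were higher (BIK and SERPINB9), 4 lower (CASP8, ITCH, AIFM1 and BIRC2), 3 member probe sets lower, all of MCL1, and 2 genes beside BID lower (CECR2 and SLC25A18). The shares over all genes were not computed for the MAS5-only and 1.5-fold rules, so nothing is read from these counts. No paired analysis was possible because each group has 1 sample.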
